A study of Mus musculus with 11 samples.

Results

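Untreated mouse embryonic stem cells (ESCs) lacking all Tet genes, called Tet1/2/3 triple knockout or TKO, were compared with wild-type (WT) ESCs by RNA sequencing. The genes described are those whose mean over the 4 untreated ribodepleted libraries was over 1 TPM, a unit of transcript level scaled for gene length and library depth. They were 12574 of the 23284 genes listed, and 559 of them passed that limit through 1 genotype only. There were 2 WT and 2 TKO libraries. The WT and TKO cells had the same medium and surface: gelatin-coated plates and high-glucose DMEM with serum and recombinant leukemia inhibitory factor (LIF). The untreated cells are the 0 h control of an experiment in which the same genotypes received α-amanitin, which blocks RNA polymerase II, for 4 h, 2 libraries per genotype again. The TKO cells come from a line made before the study, so that a difference between the genotypes is a difference between lines. The 2 libraries of a genotype are biological duplicates, so that the p-values measure the spread between duplicates of a line and not between lines.

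Tet1, Tet2 and Tet3 encode dioxygenases that oxidise the methyl group of 5-methylcytosine in DNA to 5-hydroxymethylcytosine, a step in the removal of DNA methylation. They also act on 5-methylcytosine in RNA. ESCs express mainly Tet1 and Tet2. ESCs in serum and LIF move between a naive state, close to the early inner cell mass, and states primed for differentiation, and they normally keep trophoblast and germ cell genes at low levels. DNA methylation at promoters and enhancers is 1 of the layers that holds such genes down.

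Levels are given as scaled TPM, which are the deposited TPM divided by a size factor for each library. A change is the difference TKO minus WT of log2(scaled TPM + 1), given ± its standard error (SE), and it understates the change of genes at low levels. A gene was called higher or lower where the Benjamini-Hochberg adjusted p of limma's moderated test was under 0.05 and the change was over 1.5-fold. The verbs rose and fell are used only for such genes. In bulk RNA, fewer cells of a type and less RNA per cell cannot be told apart.

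The knocked-out genes were examined first. Tet2 was at 55.5 and 48.1 scaled TPM in WT and 7.72 and 7.16 in TKO libraries, and fell by 2.64 ± 0.097 (adjusted p = 3.3e-07). Tet1 was at 143 and 124 scaled TPM in WT and 29.9 and 30.1 in TKO libraries, and fell by 2.11 ± 0.10 (adjusted p = 1.5e-06). Tet3, at a low level in both genotypes, was at 1.42 and 1.48 scaled TPM in WT and 1.39 and 1.51 in TKO libraries and was not called (change −0.00083 ± 0.099, adjusted p = 0.99). TPM sum reads over the whole gene, so that reads outside the deleted part still count and the remaining level does not measure functional transcript.

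The libraries were deep and alike within a genotype. The reads that could be recovered from the TPM values came to 26352965 to 29732475 per untreated library, which is a lower bound, since a factor by which all 8 libraries of a gene could be divided leaves no trace. The first principal component, with 74.7% of the variance over the 8 ribodepleted libraries, separated the genotypes. All 8 ESC markers were over 1 TPM in each library, with summed TPM of 2883 to 2928 in WT and 2137 to 2142 in TKO. Summed markers of feeder fibroblasts were at 51.2 to 65.7 TPM in WT and 38.1 to 41.0 in TKO, and summed trophoblast markers at 3.37 to 3.79 and 10.7 to 11.6, with 1 of the 6 markers at 0 in each library and Cdx2, Elf5 and Gata3 all too low to be tested. Summed markers of extraembryonic endoderm lay between 5.41 and 7.74 TPM and of blood between 6.65 and 10.4 in the 4 libraries, and summed markers of neural progenitors and neurons were at 186 to 189 TPM in WT and 151 to 153 in TKO. The part of other cell types in the results below was not tested.

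Of the 12574 genes, 1322 were called higher in TKO cells (10.5%) and 691 lower (5.5%). After 4 h of α-amanitin, in other libraries of the same lines, 1387 of these genes were called higher (11.03%) and 724 lower (5.76%), with 1137 higher and 532 lower at both times. The median change over all tested genes was −0.019. Higher and lower calls were spread differently over the expression range. Among genes with a WT mean of 1 to 5 scaled TPM, 20.3% were called higher and 6.28% lower, whereas among those over 100 scaled TPM 1.09% were called higher and 4.67% lower. The low end of that range is also where the limit of 1 TPM acts. Of the 1322 higher calls, 268 were at genes at or under 1 scaled TPM in WT. Of the 691 lower calls, 90 were at genes at or under 1 scaled TPM in TKO. The limit was set on deposited TPM, which differ slightly, and most of those genes could enter only through the genotype in which they were high. For the main lists below, the calls among members over 1 deposited TPM in both genotypes are therefore given too.

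**Figure D1:**
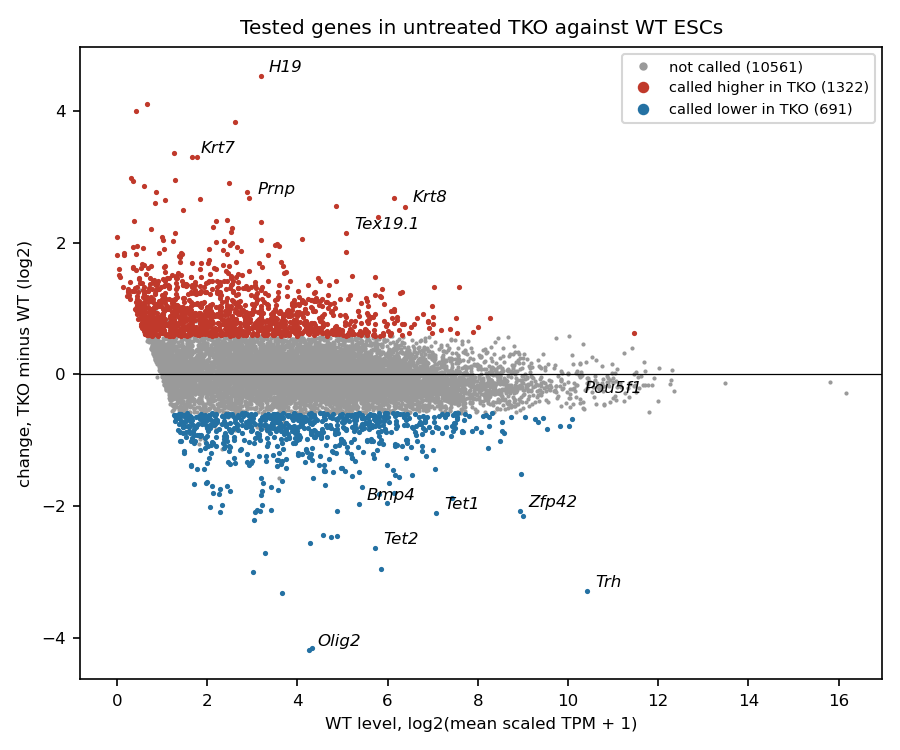
Change of each of the 12574 tested genes in untreated TKO against WT ESCs (vertical axis, log2) by its WT level (horizontal axis, log2 of mean scaled TPM + 1). Red points are the 1322 genes called higher, blue points the 691 called lower, and the sloping lower left edge comes from the limit on mean TPM.

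The changes were not spread evenly over the genome. Genes were placed on the mouse build NCBIM37 (mm9), which succeeded for 12317 of them. The median change of the 657 tested genes of chromosome 1 was 0.18, with 120 called higher and 13 lower, and that of the 1028 genes of chromosome 11 was 0.25, with 163 higher and 34 lower. Of these genes, 73.4% on chromosome 1 and 79.7% on chromosome 11 had a change above 0. On chromosome 6, 101 genes from Scrn1 to Dusp11, a stretch that holds Tet3 (chr6:54455884-85911661), had a median of 0.53, and 97 of them were above 0. The next 114 genes, from Fam136a onwards, had a median of −0.45, and 96 of them were below 0. For genes over 20 scaled TPM, the median ratio of TKO over WT was 1.18 on chromosome 11, 1.39 in the stretch with Tet3 and 0.708 in the next one. At 4 h the medians were 0.20, 0.25, 0.53 and −0.46 in the same order.

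These 4 regions, which were chosen after the data were seen, hold 15.1% of the tested genes, 25.04% of the higher calls and 12.4% of the lower calls. In windows of about 40 neighbouring genes, all 16 windows of chromosome 1 and all 25 of chromosome 11 had a median above 0, against 58 of 243 windows on the chromosomes other than 1, 6 and 11. The 10417 placed genes outside the 4 regions had a median of −0.055, with 978 called higher and 564 lower. Gene copy number was not measured, and its part in these shifts was not tested. For most gene groups below, the count outside the 4 regions is therefore given.

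**Figure D2:**
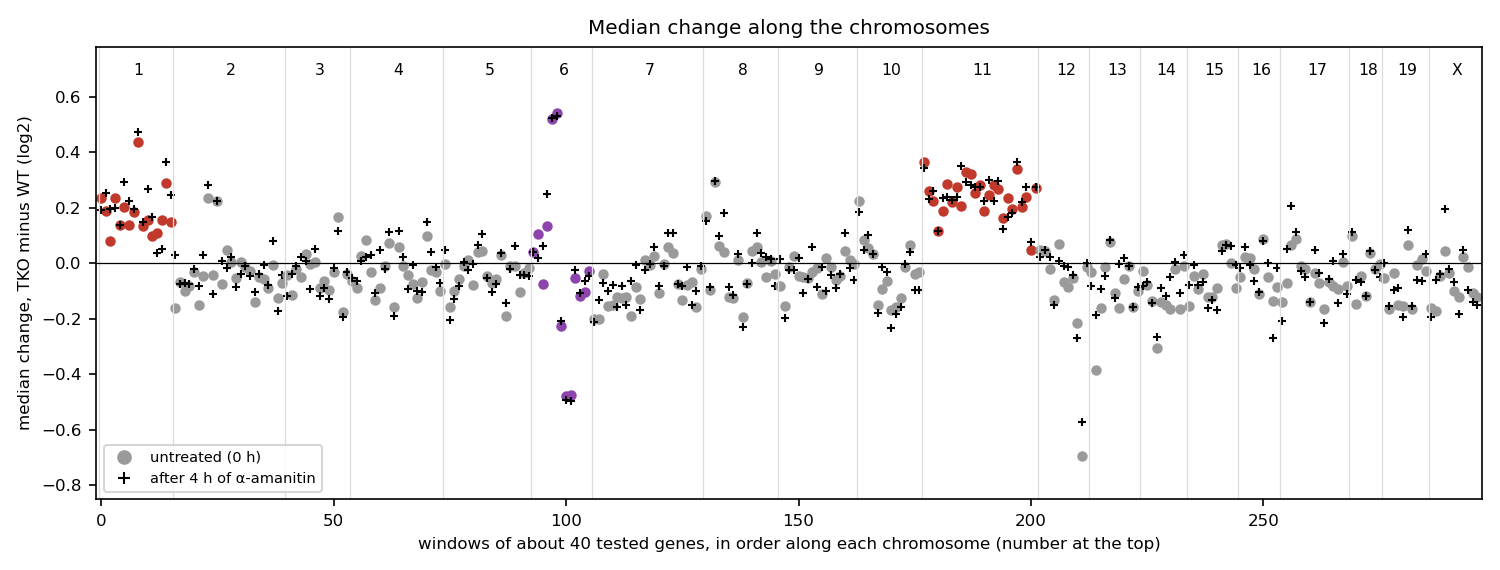
Median change (TKO minus WT, log2) in 297 windows of about 40 tested genes in order along the chromosomes, whose numbers stand at the top; filled points are the untreated libraries and crosses those after 4 h of α-amanitin. Red windows lie on chromosomes 1 and 11 and are all above 0, and purple ones on chromosome 6, where windows at 0.54 are followed by windows down to −0.48.

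**Figure D3:**
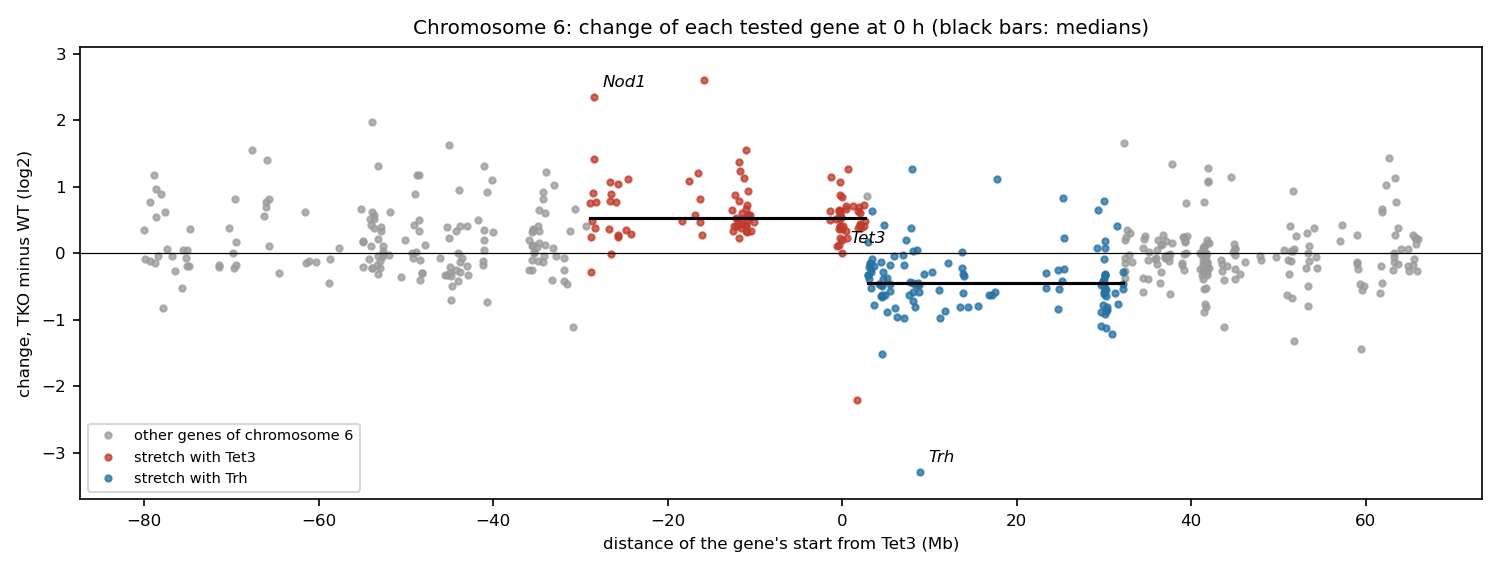
Change of each tested gene of chromosome 6 at 0 h (TKO minus WT, log2) by the distance of its start from the start of Tet3 in megabases. Black bars are the medians of the stretch with Tet3 (red points, 0.53) and of the adjoining stretch with Trh (blue points, −0.45).

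Some genes of these stretches changed far beyond their neighbours. Trh, which encodes the precursor of thyrotropin-releasing hormone, was at 1356 and 1389 scaled TPM in WT and 134 and 144 in TKO libraries, fell by 3.30 ± 0.077 (adjusted p = 4.3e-08) and lies in the chromosome 6 stretch whose median was −0.45. In the stretch with Tet3, Nod1, an intracellular sensor of bacterial peptidoglycan, was at 4.39 and 4.54 scaled TPM in WT and 27.3 and 26.3 in TKO libraries, a rise of 2.35 ± 0.072 (adjusted p = 1.8e-07). The libraries of the genotypes did not overlap for either gene.

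Among lineage groups with at least 10 tested members, trophectoderm genes had the highest share of higher calls. The lists were chosen with earlier results of these data known, so that this order is a description and not a test. Trophectoderm is the first epithelium of the embryo and forms the placenta. Of 34 genes on that list, 25 were tested, 16 rose and the other 9 were not called, and the median change was 0.99. Among the 23 members over 1 TPM in both genotypes 14 rose, and outside the 4 regions 14 of 22 rose. All 16 were called higher again at 4 h. Gene lists overlap. Of the 16, Dsp and Cdh3 for example are also on the junction list, Id2 and Bmp8b on the BMP list and Hand1 on the mesoderm list. The simple epithelial keratins led. Krt7 was at 1.66 and 2.73 scaled TPM in WT and 28.7 and 31.7 in TKO libraries, a rise of 3.31 ± 0.15 (adjusted p = 9.0e-07). Krt18 was at 60.1 and 78.9 scaled TPM in WT and 448 and 451 in TKO libraries, a rise of 2.69 ± 0.12 (adjusted p = 9.6e-07). Its filament partner Krt8 was at 71.6 and 92.7 scaled TPM in WT and 479 and 486 in TKO libraries, a rise of 2.55 ± 0.11 (adjusted p = 8.9e-07). In WT cells the second library was above the first for all 3 keratins, but both TKO libraries were far above both.

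The 250 bases before the annotated start of Krt7 and Krt18 are printed because both genes lie close together on chromosome 15 and moved together, yet their upstream sequences differ in CpG, the pair of letters at which most mammalian DNA methylation is found. Letters run 5′ to 3′ in the direction of transcription, come from NCBIM37, and have each CpG in capitals. Krt7 (chr15:101241224-101241473, plus strand) has 0 CpG, whereas Krt18 (chr15:101858397-101858646, plus strand) has 12, and 36.2% of the 12313 promoters read this way have fewer than Krt18.
Krt7: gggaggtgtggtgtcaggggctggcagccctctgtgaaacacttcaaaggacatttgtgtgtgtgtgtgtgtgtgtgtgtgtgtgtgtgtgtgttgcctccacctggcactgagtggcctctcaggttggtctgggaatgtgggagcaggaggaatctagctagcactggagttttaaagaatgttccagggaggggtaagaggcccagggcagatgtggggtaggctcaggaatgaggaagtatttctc
Krt18: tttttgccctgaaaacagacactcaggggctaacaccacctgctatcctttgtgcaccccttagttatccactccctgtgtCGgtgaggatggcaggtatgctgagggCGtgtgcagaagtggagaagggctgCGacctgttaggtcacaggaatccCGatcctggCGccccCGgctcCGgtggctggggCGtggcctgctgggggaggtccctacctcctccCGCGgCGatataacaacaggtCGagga

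Other placental genes followed. Plac1, an X-linked gene of the placenta, was at 0.130 and 0.457 scaled TPM in WT and 5.61 and 5.33 in TKO libraries, a rise of 2.33 ± 0.14 (adjusted p = 3.9e-06). Ascl2, a helix-loop-helix factor that trophoblast needs, was at 1.59 and 1.30 scaled TPM in WT and 10.2 and 9.48 in TKO libraries, a rise of 2.15 ± 0.12 (adjusted p = 3.1e-06). Krt19, on chromosome 11, was at 13.4 and 18.8 scaled TPM in WT and 66.1 and 72.3 in TKO libraries, a rise of 2.05 ± 0.15 (adjusted p = 1.2e-05). All 3 were separated between genotypes with no overlap, but Plac1 passed the TPM limit only through its TKO level. Smaller rises were seen for Hand1 (1.63), the trophoblast homeobox genes Rhox6 (1.13) and Rhox9 (0.97), Cdh3 (1.11), which encodes P-cadherin, Lcp1 (0.99), Peg10 (0.96) and Ppp2r2c (0.79). Of the factors that set up the lineage, Cdx2, Elf5 and Gata3 were not tested, Tfap2c was at 48.1 and 46.4 scaled TPM in WT and 48.6 and 47.0 in TKO libraries (change 0.016 ± 0.048, adjusted p = 0.79), and neither Tead4 (change 0.018 ± 0.084) nor Eomes (change 0.20 ± 0.11) was called.

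**Figure D4:**
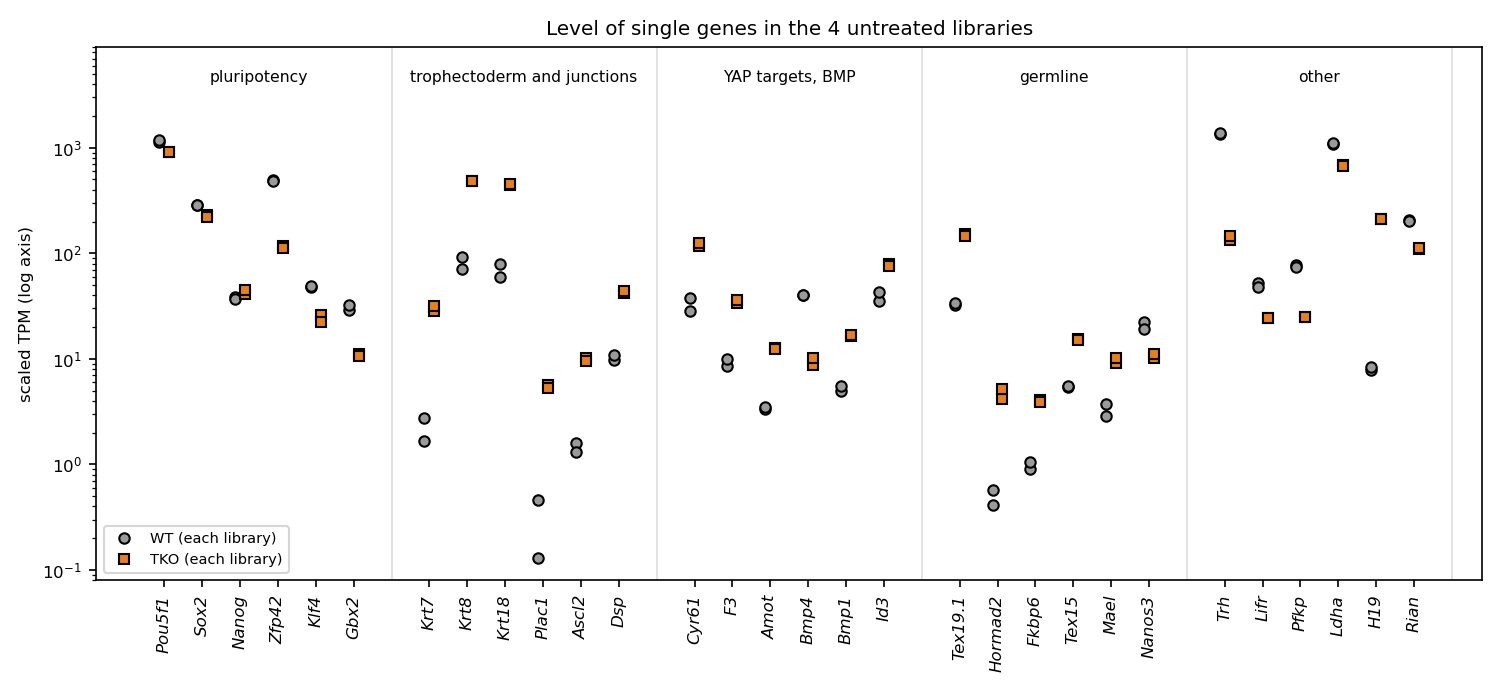
Level of 30 genes in each of the 4 untreated libraries (scaled TPM, log axis): grey circles are the 2 WT libraries and orange squares the 2 TKO libraries. The libraries of a genotype lie close together, and for Krt7, Tex19.1, Trh and H19 the genotypes are separated by far more than the replicates.

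Genes of cell junctions and adhesion had 20 of 63 tested members called higher and 5 lower (median 0.27), 17 and 5 of 57 over 1 TPM in both genotypes, and 16 and 5 of 56 outside the 4 regions. At desmosomes 4 members rose, whereas Jup, Pkp2, Pkp3 and Pkp4 were not called. Dsp, encoding desmoplakin, was at 9.80 and 10.8 scaled TPM in WT and 42.1 and 43.9 in TKO libraries, a rise of 1.96 ± 0.060 (adjusted p = 1.8e-07). The desmosomal cadherin Dsc2 was at 2.21 and 2.02 scaled TPM in WT and 7.55 and 7.79 in TKO libraries, a rise of 1.48 ± 0.085 (adjusted p = 3.0e-06). Dsg2 (0.82) and Perp (0.88) rose less. At tight junctions Cldn7 (1.16), Marveld2 (0.90), Ocln (0.89), Cldn4 (0.80), Cgn (0.70) and F11r (0.67) rose. Cdh1, encoding the E-cadherin of ESC colonies, was at 211 and 208 scaled TPM in WT and 264 and 259.8 in TKO libraries and was not called (change 0.32 ± 0.043). Integrin subunits, the receptors that tie cells to the matrix, went both ways. Itga3, which pairs with the beta1 subunit and binds laminin, was at 35.1 and 36.7 scaled TPM in WT and 102 and 104 in TKO libraries, a rise of 1.498 ± 0.046 (adjusted p = 1.8e-07). Itgb3 (1.45) and Itgav (1.08), which form 1 receptor together, also rose. By contrast Itgb7 was at 23.4 and 23.3 scaled TPM in WT and 7.12 and 8.58 in TKO libraries, and fell by 1.46 ± 0.13 (adjusted p = 2.9e-05), and Itga9 fell by 1.30 and Itga1 by 0.84.

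The extracellular matrix list had 22 of 55 tested members called higher and 2 lower (median 0.25), 13 and 2 of 45 over 1 TPM in both genotypes, and 16 and 2 of 44 outside the 4 regions. Type IV collagen, the network of basement membranes, is made from Col4a1 and Col4a2, which share a promoter region and face away from each other. Col4a1 was at 22.4 and 27.9 scaled TPM in WT and 64.8 and 66.1 in TKO libraries, a rise of 1.35 ± 0.11 (adjusted p = 2.3e-05). Col4a2 was at 8.62 and 9.67 scaled TPM in WT and 25.1 and 27.1 in TKO libraries, a rise of 1.42 ± 0.093 (adjusted p = 6.3e-06). The fibrillar collagens Col5a2 (1.53), Col5a1 (1.37) and Col1a2 (1.17) rose from lower levels, as did the metalloproteases Mmp15 (1.36), Mmp9 (1.16) and Mmp2 (0.88). Sparc, a secreted matrix protein whose gene lies on chromosome 11, was at 117 and 132 scaled TPM in WT and 252 and 263 in TKO libraries, a rise of 1.04 ± 0.074 (adjusted p = 9.2e-06). Laminins split. Lama1, the alpha chain of the embryonic laminin, was at 51.2 and 51.1 scaled TPM in WT and 20.7 and 20.5 in TKO libraries, and fell by 1.27 ± 0.048 (adjusted p = 3.6e-07), whereas the epithelial laminin chains Lama3 (0.95) and Lamb3 (0.81) rose. Nid2, encoding a nidogen that links laminin to collagen IV, fell by 0.80.

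Axon guidance families, which also steer cell contacts outside the nervous system, had 11 of 44 members called higher and 2 lower (median 0.18), 9 and 2 of 40 over 1 TPM in both genotypes, and 10 of 36 rose outside the 4 regions. Unc5b, a netrin receptor, was at 11.6 and 12.2 scaled TPM in WT and 39.5 and 39.4 in TKO libraries, a rise of 1.65 ± 0.051 (adjusted p = 1.8e-07). Its ligand went the other way: Ntn1, on chromosome 11, was at 62.8 and 63.0 scaled TPM in WT and 15.0 and 16.1 in TKO libraries, and fell by 1.95 ± 0.051 (adjusted p = 8.3e-08). Sema4c (1.71), Sema3e (1.20) and Sema3f (1.14) rose, whereas the semaphorin receptor gene Nrp2 fell by 1.18. The ephrins Efnb2 (1.09), Efnb1 (1.08) and Efna5 (1.04) rose.

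Among signalling pathways, Hippo and YAP genes had 13 of 30 members called higher and 1 lower (median 0.53), and 12 and 1 of 26 outside the 4 regions. All 13 that rose were over 1 TPM in both genotypes. In this pathway LATS kinases hold the coactivators YAP and TAZ in the cytoplasm, and angiomotins bind them at junctions. Among targets of YAP and TAZ, Cyr61 was at 28.2 and 37.7 scaled TPM in WT and 118 and 124 in TKO libraries (change 1.86 ± 0.12). F3, which encodes tissue factor, was at 8.57 and 9.86 scaled TPM in WT and 34.0 and 35.8 in TKO libraries, a rise of 1.81 ± 0.077 (adjusted p = 7.1e-07). Tgm2 (1.26), Crim1 (0.95) and Axl (0.83) rose as well, but the target Ankrd1 fell, from 1.81 and 1.90 scaled TPM in WT to 1.09 and 0.591 in TKO libraries (change −0.65 ± 0.17), and it was not called at 4 h. Regulators rose too. The angiomotin gene Amot was at 3.37 and 3.46 scaled TPM in WT and 12.5 and 12.4 in TKO libraries, a rise of 1.61 ± 0.071 (adjusted p = 8.6e-07), and its relatives Amotl1 (0.96) and Amotl2 (0.88) rose by less. Lats2 (0.84), Stk3 (0.61) and Mob1a (0.84), parts of the kinase cascade, rose with them, Mob1a from inside the stretch with Tet3. Wwtr1, which encodes TAZ, rose by 0.95, whereas Yap1 was at 88.3 and 89.9 scaled TPM in WT and 107 and 105 in TKO libraries and was not called (change 0.25 ± 0.040).

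BMP genes and their Id targets had 9 of 22 members called higher and 1 lower (median 0.50), 7 and 1 of 20 over 1 TPM in both genotypes, and 8 and 1 of 20 outside the 4 regions. The ligand with the highest WT level was the exception. Bmp4 was at 40.1 and 39.9 scaled TPM in WT and 8.81 and 10.2 in TKO libraries, and fell by 1.97 ± 0.071 (adjusted p = 3.2e-07). The ligands Bmp7 (1.09) and Bmp8b (1.16) rose from low levels, as did the antagonists Nog (1.22) and Nbl1 (1.15). Bmp1, which despite its name encodes a protease that processes collagen and the BMP antagonist chordin, was at 4.98 and 5.56 scaled TPM in WT and 16.3 and 16.8 in TKO libraries, a rise of 1.49 ± 0.090 (adjusted p = 4.1e-06). Several targets of the pathway stood higher although Bmp4 stood lower, but Id1, on the same list, was not among the genes called. Id3 was at 35.4 and 43.4 scaled TPM in WT and 78.5 and 76.1 in TKO libraries, a rise of 0.96 ± 0.089 (adjusted p = 3.9e-05). Id2 was at 25.4 and 29.1 scaled TPM in WT and 58.1 and 59.1 in TKO libraries, a rise of 1.08 ± 0.066 (adjusted p = 4.5e-06). Id4 (0.77) and the inhibitory Smad6 (0.97) rose with them.

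In the Nodal, activin and TGF-beta list 7 of 30 members rose and 1 fell (median 0.13), 6 and 1 of 29 over 1 TPM in both genotypes, and 6 and 1 of 26 outside the 4 regions. The type II receptor gene Tgfbr2 was at 0.579 and 0.627 scaled TPM in WT and 2.85 and 2.89 in TKO libraries, a rise of 1.27 ± 0.095 (adjusted p = 1.2e-05). Tgfbr2 passed the TPM limit only through its TKO level. The latent TGF-beta binding protein gene Ltbp1 (0.97), the convertase gene Furin (0.91) and the effector Smad3 (0.72) also rose. Ltbp4 fell by 0.60 and was not called on TPM without scaling.

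The Wnt list had 13 of 51 members called higher and 4 lower (median 0.16), 9 and 3 of 43 over 1 TPM in both genotypes, and 8 and 3 of 37 outside the 4 regions. Wls, which carries Wnt proteins to the cell surface, was at 5.10 and 7.21 scaled TPM in WT and 16.7 and 16.5 in TKO libraries, a rise of 1.31 ± 0.12 (adjusted p = 4.1e-05). Of the 10 Frizzled receptor genes on the list, Fzd1 (1.28), Fzd6 (1.14), Fzd2 (1.11) and Fzd8 (0.79) rose, and the other 6 were not called. The ligands Wnt9a (1.47), Wnt7a (1.27) and Wnt3 (1.10) rose from under 1 scaled TPM in WT, and all 3 lie in the 4 regions. Secreted antagonists split. Sfrp1 was at 35.3 and 34.5 scaled TPM in WT and 82.0 and 82.4 in TKO libraries, a rise of 1.21 ± 0.047 (adjusted p = 4.0e-07). Notum, which encodes an enzyme that removes the lipid from Wnt proteins, was at 28.4 and 27.5 scaled TPM in WT and 11.2 and 12.1 in TKO libraries, and fell by 1.19 ± 0.065 (adjusted p = 2.6e-06). Sfrp4 fell by 0.93, the Wnt-modifying acyltransferase gene Porcn by 0.91 and the Wnt target Cdx1 by 1.34.

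In the Notch list 5 of 27 rose and 1 fell (median 0.01), and 4 and 0 of 22 outside the 4 regions, with the ligand Dll1 at 1.19 and 0.936 scaled TPM in WT and 3.79 and 3.67 in TKO libraries (change 1.20 ± 0.10, adjusted p = 2.8e-05). In the Hedgehog list 2 of 13 rose, or 15.4% beside 10.5% of all genes (median 0.18). Both lie outside the 4 regions: Gli3 (0.84), a transcription factor of the pathway, and Hhip (0.73), which binds the ligand. Of 14 retinoic acid genes, 5 rose and 1 fell (median 0.04), but 4 of the 14 passed the TPM limit through 1 genotype only. Among the 10 over 1 TPM in both genotypes 3 rose and 0 fell, and outside the 4 regions 4 of 11 rose. Crabp2, a cytoplasmic retinoic acid binding protein, was at 4.54 and 4.50 scaled TPM in WT and 15.4 and 14.6 in TKO libraries, a rise of 1.53 ± 0.087 (adjusted p = 3.0e-06). Its neighbours in the pathway moved by less, with Rxra (0.78), Aldh1a3 (0.74) and Dhrs3 (0.73) higher.

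FGF and ERK genes went both ways, 7 of 40 higher and 5 lower (median −0.07), 5 and 5 of 37 over 1 TPM in both genotypes, and 6 and 4 of 34 outside the 4 regions. Fgf15, an FGF19-type ligand made in primed epiblast, was at 11.7 and 10.3 scaled TPM in WT and 2.43 and 2.61 in TKO libraries, and fell by 1.76 ± 0.092 (adjusted p = 2.1e-06). Fgf17 was at 33.1 and 33.1 scaled TPM in WT and 13.6 and 16.4 in TKO libraries, and fell by 1.10 ± 0.077 (adjusted p = 8.9e-06). Fgf5, the standard primed marker, was at 0.332 and 0.446 scaled TPM in WT and 2.03 and 1.94 in TKO libraries, a rise of 1.10 ± 0.11 (adjusted p = 6.3e-05). Ligands of 1 family thus changed in opposite directions, but Fgf5 passed the TPM limit only through its TKO level, so that it could only be higher. Mapk3, which encodes ERK1, fell by 0.83, and the phosphatase genes Dusp14 (1.72) and Dusp5 (1.05) rose.

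Of 15 general pluripotency factors, limma called none in either direction, nor did the voom fit on recovered reads (median −0.26). At an unadjusted p of limma under 0.05, 9 were lower and 2 higher, but 61.0% of all tested genes were under that limit. Without the fold limit, 9 were called lower and 0 higher. Pou5f1, which encodes Oct4, was at 1122 and 1186 scaled TPM in WT and 905 and 919 in TKO libraries (change −0.34 ± 0.076, adjusted p = 0.0051). Sox2 was at 287 and 287 scaled TPM in WT and 230.2 and 221 in TKO libraries (change −0.35 ± 0.077, adjusted p = 0.0048). Nanog was at 38.9 and 37.2 scaled TPM in WT and 40.9 and 44.5 in TKO libraries (change 0.16 ± 0.083, adjusted p = 0.13). Pou5f1 and Sox2 were thus lower in both TKO libraries by less than 1.5-fold, and Nanog was slightly above. Lin28a, a repressor of let-7 microRNAs, had a change of −0.51 ± 0.053 (adjusted p = 7.5e-05), also short of the fold limit.

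Of 21 naive pluripotency genes 8 fell and 1 rose (median −0.45), and 7 of 17 fell outside the 4 regions. All 8 were called lower again at 4 h. Gbx2, a homeobox gene downstream of LIF, was at 29.0 and 32.7 scaled TPM in WT and 11.1 and 10.7 in TKO libraries, and fell by 1.42 ± 0.12 (adjusted p = 3.0e-05), although it lies on chromosome 1, where most genes were higher. Manba, a lysosomal mannosidase gene, was at 98.2 and 101 scaled TPM in WT and 46.7 and 51.0 in TKO libraries, and fell by 1.01 ± 0.053 (adjusted p = 2.1e-06). Esrrb, an orphan nuclear receptor of the naive network, was at 180.0 and 179 scaled TPM in WT and 108 and 106 in TKO libraries, and fell by 0.74 ± 0.041 (adjusted p = 2.6e-06). Zfp42 (−2.08) had the largest fall of the list, and Tcl1 (−0.99), Klf4 (−0.98), Nr0b1 (−0.87) and Klf5 (−0.61) fell by less. Other members of the same network were not called: Tfcp2l1 was at 135 and 130.0 scaled TPM in WT and 126 and 126 in TKO libraries (change −0.078 ± 0.042), Prdm14 had a change of 0.031 ± 0.061 and Dppa3 of 0.19 ± 0.073. Pecam1, on chromosome 11, rose by 0.74, and its call was lost when the median of its region was subtracted.

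The 250 bases before the start of Zfp42 (chr8:44392364-44392613, minus strand, NCBIM37) are shown for comparison with genes that rose. They hold 9 CpG, in capitals, and 25.7% of all promoters read have fewer.
Zfp42: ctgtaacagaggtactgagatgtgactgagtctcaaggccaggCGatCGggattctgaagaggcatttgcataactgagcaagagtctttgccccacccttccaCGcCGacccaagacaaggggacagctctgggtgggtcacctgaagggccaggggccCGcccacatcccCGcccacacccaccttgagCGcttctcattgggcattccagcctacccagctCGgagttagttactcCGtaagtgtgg

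Primed epiblast genes had 5 of 17 members called higher and 1, Fgf15, lower (median 0.21), 4 and 1 of 15 over 1 TPM in both genotypes, and 4 and 1 of 16 outside the 4 regions. Besides Fgf5, Sox4 was at 10.7 and 11.1 scaled TPM in WT and 24.99 and 27.0 in TKO libraries, a rise of 1.18 ± 0.078 (adjusted p = 6.3e-06), and Zic2 (0.88), the Wnt antagonist gene Sfrp2 (1.03) and Car4 (1.43) rose. Dnmt3b, the de novo methyltransferase gene that is high in primed cells, was at 278 and 283 scaled TPM in WT and 228 and 224 in TKO libraries and was not called (change −0.31 ± 0.050).

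The LIF, JAK and STAT list, which carries the self-renewal signal in this medium, had 5 of 30 members called lower and 4 higher (median −0.15), and 4 and 2 of 23 outside the 4 regions. The receptor gene Lifr was at 52.2 and 47.6 scaled TPM in WT and 24.3 and 24.2 in TKO libraries, and fell by 1.01 ± 0.056 (adjusted p = 2.7e-06). Socs3, a feedback inhibitor and target of STAT3, was at 110.2 and 115 scaled TPM in WT and 63.7 and 61.1 in TKO libraries, and fell by 0.84 ± 0.079 (adjusted p = 4.2e-05). Pim3 (−0.70) and Bcl3 (−0.67), further STAT3 targets, fell with them. Socs1, a relative of Socs3 on the list, went the other way and rose, a call that was lost when 1 library was left out. Stat3 itself was at 65.6 and 67.2 scaled TPM in WT and 52.99 and 53.3 in TKO libraries and was not called (change −0.32 ± 0.044). The ligand gene Lif (0.75) and Stat5b (0.70), both on chromosome 11, rose from low levels, and both calls were lost when the median of the region was subtracted.

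Germline and meiosis genes had 17 of 40 tested members called higher and 4 lower (median 0.32), 11 and 4 of 32 over 1 TPM in both genotypes, and 12 and 4 of 32 outside the 4 regions. Many of these genes have CpG-rich promoters that are methylated in somatic cells. Tex19.1, a germ cell and placental gene that is known to respond to promoter methylation, was at 32.2 and 33.7 scaled TPM in WT and 151 and 147 in TKO libraries, a rise of 2.14 ± 0.044 (adjusted p = 2.4e-08). It lies on chromosome 11. Some of those that rose are known from the piRNA pathway, which silences transposons in the germline. Fkbp6 was at 0.895 and 1.05 scaled TPM in WT and 4.04 and 3.89 in TKO libraries, a rise of 1.33 ± 0.14 (adjusted p = 6.8e-05), and Mael (1.30), Tex15 (1.32), Ddx4 (1.05), Tdrd1 (0.92) and Stk31 (1.23) rose as well. Among meiotic genes Hormad2, a protein of unsynapsed chromosome axes, was at 0.568 and 0.416 scaled TPM in WT and 4.19 and 5.17 in TKO libraries, a rise of 1.93 ± 0.15 (adjusted p = 1.4e-05), and Stra8 (1.17), the recombinase gene Dmc1 (0.69), Sycp3 (0.65) and Sycp1 (0.60) rose. Fkbp6 and Hormad2 passed the TPM limit only through their TKO level, so that they could only be higher. A pair of early germ cell factors fell. Nanos3 was at 22.1 and 19.21 scaled TPM in WT and 10.1 and 11.04 in TKO libraries, and fell by 0.90 ± 0.10 (adjusted p = 1.0e-04), but was not called at 4 h. Dnd1, an RNA-binding protein gene of germ cells, fell by 0.84. Dazl (0.91) rose.

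The sequences before the starts of Tex19.1 (chr11:121007207-121007456, plus strand) and Fkbp6 (chr5:135825896-135826145, minus strand) are shown as the CpG-bearing examples, again from NCBIM37 with CpG in capitals. They hold 15 and 19 CpG, and 47.7% and 62.5% of all promoters read have fewer.
Tex19.1: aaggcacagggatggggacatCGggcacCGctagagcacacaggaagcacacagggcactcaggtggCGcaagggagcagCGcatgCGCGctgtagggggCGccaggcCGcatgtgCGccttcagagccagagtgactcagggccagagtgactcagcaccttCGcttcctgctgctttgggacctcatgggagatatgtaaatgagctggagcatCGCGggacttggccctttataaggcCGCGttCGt
Fkbp6: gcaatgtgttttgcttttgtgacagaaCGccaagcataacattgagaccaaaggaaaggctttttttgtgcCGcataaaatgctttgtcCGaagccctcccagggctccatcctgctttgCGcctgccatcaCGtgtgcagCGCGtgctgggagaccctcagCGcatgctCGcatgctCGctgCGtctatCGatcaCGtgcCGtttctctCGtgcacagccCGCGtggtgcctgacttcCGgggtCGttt

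Genes of the early cleavage embryo were mostly too low to be tested. Of 33 two-cell-like genes 4 were tested, 3 of them only through their TKO level. Tcstv3 was at 0.0789 and 0.159 scaled TPM in WT and 2.82 and 3.09 in TKO libraries (change 1.82 ± 0.11), and Tcstv1 at 0 in both WT libraries and 3.44 and 3.05 scaled TPM in the TKO libraries. Calcoco2, an autophagy receptor gene on chromosome 11, was at 27.8 and 28.5 scaled TPM in WT and 177 and 165 in TKO libraries, a rise of 2.56 ± 0.055 (adjusted p = 2.4e-08). Tcstv1 and Tcstv3 are near-identical neighbours, so that their reads may be shared. Among oocyte and preimplantation families 5 of 8 tested members rose and 1 fell, or 3 of 4 over 1 TPM in both genotypes rose, and Pramel7 and Pramel6 had the largest changes. Pramel7, which is known for lowering DNA methylation in naive cells, was at 0.224 and 0.263 scaled TPM in WT and 9.08 and 8.70 in TKO libraries, a rise of 2.99 ± 0.093 (adjusted p = 1.8e-07). Pramel6 was at 0.630 and 0.408 scaled TPM in WT and 10.4 and 9.79 in TKO libraries, a rise of 2.87 ± 0.11 (adjusted p = 3.6e-07), and as a close paralog may share reads with it. Rhox1 rose by 0.96 and, like Pramel7 and Pramel6, passed the TPM limit only through its TKO level.

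Imprinted genes, whose parental copies differ in methylation, changed in both directions, 9 of 47 higher and 7 lower (median −0.04), and 8 and 5 of 40 outside the 4 regions. H19, a maternally expressed RNA, was at 7.82 and 8.38 scaled TPM in WT and 211 and 209.7 in TKO libraries (change 4.54 ± 0.083). On the same stretch of chromosome 7 Cdkn1c (0.88), Ascl2 (2.15) and Osbpl5 (1.01) rose. Wt1, a tumour suppressor gene, was at 0.919 and 1.42 scaled TPM in WT and 5.10 and 4.76 in TKO libraries, a rise of 1.46 ± 0.12 (adjusted p = 2.3e-05). Grb10 and its neighbour Cobl, both on chromosome 11, fell by 0.83 and 0.76, against the direction of most genes there.

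The maternally expressed RNAs of the Dlk1-Dio3 domain on chromosome 12 fell together. Rian was at 206 and 203 scaled TPM in WT and 109 and 112 in TKO libraries, and fell by 0.88 ± 0.040 (adjusted p = 1.0e-06). Mirg was at 35.7 and 38.2 scaled TPM in WT and 17.3 and 19.098 in TKO libraries, and fell by 0.98 ± 0.094 (adjusted p = 4.5e-05). Meg3 fell by 0.68, whereas Dio3 at the other end of the domain rose by 1.15. From Meg3 to Mir369 (chr12:110779211-110987665) 44 features were tested, 25 fell, the other 19 were not called, and 42 were below 0, with a median of −0.86. The 40 numbered Mir features of the stretch summed to 750 and 650 recovered reads in WT and 390 and 366 in TKO libraries. The 196 Mir features elsewhere summed to 7714 and 7604 in WT and 7113 and 6117 in TKO, with 14 called higher and 19 lower. Each Mir feature of the stretch has few reads. Ribodepleted libraries read the long host RNA and its hairpins, so that these values measure the host transcript over the hairpin and not the mature microRNA.

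The mature sequences of the 5 called features of the stretch with the most WT reads are shown because they are the products this transcript carries, as RNA 5′ to 3′ from RefSeq (GRCm38.p6), with the seed (bases 2 to 8) in capitals. No 2 of them share a seed. Mir382 had 70 and 66 recovered reads in WT and 28 and 26 in TKO libraries, and fell by 1.38 ± 0.075. Mir134 had 45 and 51 in WT and 40 and 23 in TKO, and fell by 0.72 ± 0.20. For Mir453, Mir654 and Mir377 the changes were −1.11, −1.31 and −1.01.
mmu-miR-134-3p: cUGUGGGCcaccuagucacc
mmu-miR-134-5p: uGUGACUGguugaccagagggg
mmu-miR-377-3p: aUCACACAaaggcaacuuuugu
mmu-miR-377-5p: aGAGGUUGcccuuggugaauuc
mmu-miR-382-3p: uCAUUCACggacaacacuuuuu
mmu-miR-382-5p: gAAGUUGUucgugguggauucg
mmu-miR-453: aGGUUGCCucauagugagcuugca
mmu-miR-654-3p: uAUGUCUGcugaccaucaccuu
mmu-miR-654-5p: uGGUAAGCugcagaacaugugu

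Germ layer genes were called in both directions. Of 19 tested neural genes, all outside the 4 regions, 5 rose and 3 fell (median −0.01), and among the 15 over 1 TPM in both genotypes 3 rose and 1 fell. Olig1 and Olig2, factors of motor neuron and oligodendrocyte precursors, passed the limit only through their WT level (changes −3.33 and −4.19). Nkx6-2 fell as well, at 7.56 and 9.11 scaled TPM in WT and 1.91 and 1.57 in TKO libraries (change −1.77 ± 0.13, adjusted p = 1.1e-05). The rises were smaller and lay at Nefm (1.14), Gap43 (0.93), Sox3 (0.89), Nes (0.76) and Neurod1 (0.64). Of 10 mesoderm genes 2 rose and 2 fell, against 0 and 1 of the 6 over 1 TPM in both genotypes and 0 and 2 of 7 outside the 4 regions, with Tcf15, a helix-loop-helix factor of ESCs primed to leave pluripotency, at 60.1 and 68.5 scaled TPM in WT and 22.7 and 17.0 in TKO libraries (change −1.66 ± 0.11, adjusted p = 8.3e-06). Both that rose, Hand1 and Wnt3, lie on chromosome 11 and passed the limit only through their TKO level. Of 16 endoderm genes 5 were called lower, 1 higher and 10 not at all (median −0.32), with 4 lower and 1 higher of 14 over 1 TPM in both genotypes and of 15 outside the 4 regions. Spink3, a secreted trypsin inhibitor, was at 52.2 and 60.9 scaled TPM in WT and 9.09 and 4.45 in TKO libraries, and fell by 2.95 ± 0.23 (adjusted p = 1.4e-05). Apoa2 was at 19.15 and 18.9 scaled TPM in WT and 0 and 0.267 in TKO libraries, and Apoe (−0.65), Apoc1 (−0.79) and Gata4 (−0.61) fell, Gata4 from under 3 scaled TPM. Cited1 was at 0.854 and 1.29 scaled TPM in WT and 6.29 and 7.21 in TKO libraries, a rise of 1.91 ± 0.18 (adjusted p = 4.1e-05).

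**Figure D5:**
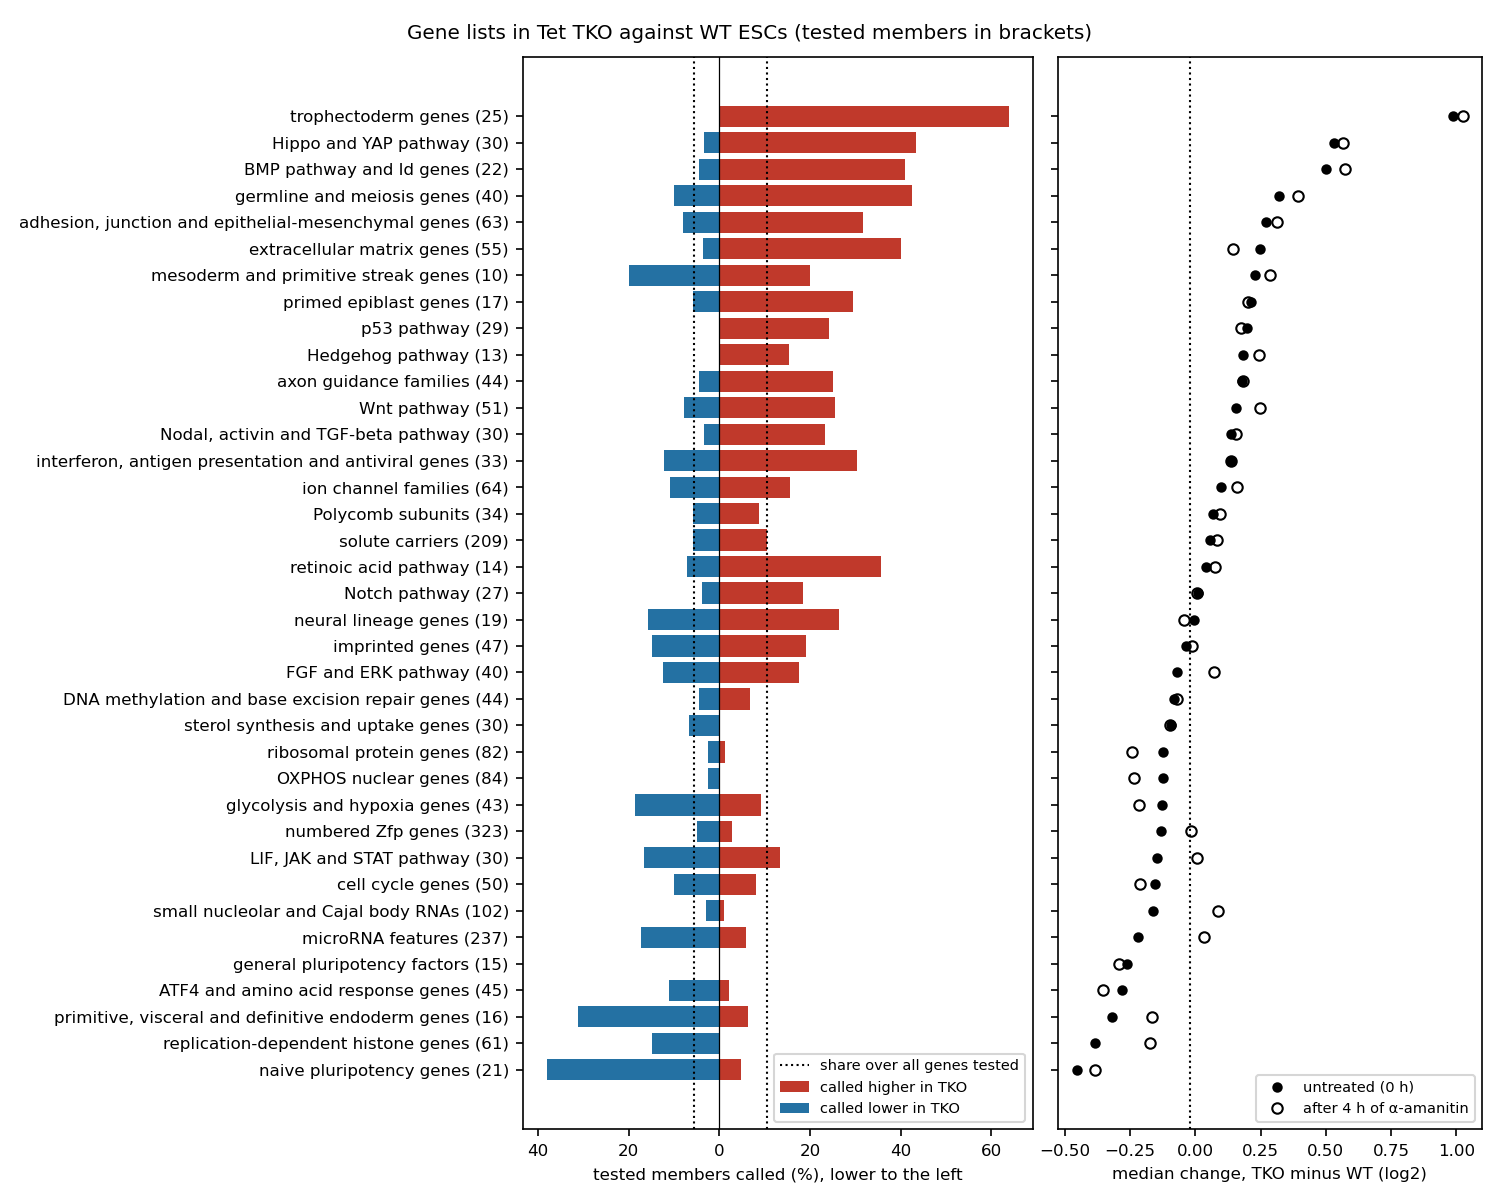
Left, for lists with at least 10 tested members, share of them called higher (red, to the right) and lower (blue, to the left) in untreated TKO cells, with dotted lines at the shares over all genes tested (10.5% and 5.5%); right, median change of the same lists (log2) at 0 h (filled) and after 4 h of α-amanitin (open). Trophectoderm genes stand at the top with a median of 0.99 and naive pluripotency genes at the bottom with −0.45. The lists were chosen with earlier results of these data known.

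Of 33 interferon, antigen presentation and antiviral genes 10 rose and 4 fell (median 0.13), 9 and 2 of 29 over 1 TPM in both genotypes, and 9 and 3 of 28 outside the 4 regions. Several that rose serve class I antigen presentation. B2m, the common light chain of class I molecules, was at 14.3 and 15.9 scaled TPM in WT and 33.5 and 32.2 in TKO libraries, a rise of 1.07 ± 0.063 (adjusted p = 3.4e-06). The heavy chains H2-K1 (1.06) and H2-D1 (0.79), the peptide transporter gene Tap1 (0.83) and Tapbp (0.66) rose with it. H2-K1 and H2-D1 are close in sequence, so that reads may be shared between them. Tlr2, a sensor of bacterial lipoproteins, was at 1.41 and 1.59 scaled TPM in WT and 5.44 and 5.62 in TKO libraries, a rise of 1.39 ± 0.10 (adjusted p = 1.1e-05). Genes induced by interferon went both ways. Gbp2 (1.03) and Irf1 (0.78) rose, whereas Ifitm1 was at 244 and 252 scaled TPM in WT and 139.9 and 139.8 in TKO libraries, and fell by 0.82 ± 0.066 (adjusted p = 1.8e-05), and Xaf1 fell by 1.04, Ifit2 by 0.86 and Irf9 by 0.74. Aim2, a cytoplasmic DNA sensor outside the list, was at 29.9 and 26.8 scaled TPM in WT and 4.39 and 4.36 in TKO libraries, and fell by 2.45 ± 0.079 (adjusted p = 1.8e-07).

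The p53 list had 7 of 29 members called higher (median 0.20), 5 of 23 outside the 4 regions, and the other 22 were not called. Plk2, a stress kinase gene, was at 25.1 and 30.5 scaled TPM in WT and 75.6 and 75.9 in TKO libraries, a rise of 1.42 ± 0.11 (adjusted p = 1.5e-05). Cdkn1a, encoding the cell cycle inhibitor p21, was at 4.96 and 4.93 scaled TPM in WT and 12.1 and 11.8 in TKO libraries, a rise of 1.12 ± 0.086 (adjusted p = 1.3e-05). In the cell cycle list, 4 of 50 rose and 5 fell (median −0.16), all of them outside the 4 regions. These shares of 8.0% and 10.0% stand beside the 10.5% and 5.5% of all genes. The inhibitors did not move as 1: Cdkn2b (1.16), Cdkn1c (0.88) and Cdkn2a (0.79) rose with Cdkn1a, whereas Cdkn1b fell by 0.68. Ccne1, the abundant G1 cyclin of ESCs, was at 299.6 and 308 scaled TPM in WT and 173 and 179 in TKO libraries, and fell by 0.78 ± 0.055 (adjusted p = 8.6e-06). Ccnd2 (−1.11) and E2f8 (−0.77) fell too.

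Glycolysis and hypoxia genes had 8 of 43 members called lower and 4 higher (median −0.13), and 7 and 3 of 35 outside the 4 regions. Enzymes at several steps fell. Pfkp, the platelet-type phosphofructokinase, was at 77.5 and 73.5 scaled TPM in WT and 25.1 and 24.7 in TKO libraries, and fell by 1.56 ± 0.054 (adjusted p = 2.7e-07). Ldha, the lactate dehydrogenase subunit gene, was at 1079 and 1109 scaled TPM in WT and 687 and 677 in TKO libraries, and fell by 0.68 ± 0.067 (adjusted p = 5.2e-05). Tpi1 (−0.89), Pfkl (−0.87), Aldoc (−0.82) and Pgk1 (−0.63) fell, as did Pdk1 (−1.16) and Bnip3 (−1.18). The muscle-type phosphofructokinase gene Pfkm went the other way, at 16.3 and 16.4 scaled TPM in WT and 31.0 and 30.7 in TKO libraries (change 0.87 ± 0.063, adjusted p = 9.9e-06), and Ndrg1 (1.15), P4ha2 (0.93) and Pfkfb3 (0.78) rose.

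ATF4 and amino acid response genes had 5 of 45 members called lower and 1 higher (median −0.28), and 5 and 0 of 39 outside the 4 regions. Slc1a5, the glutamine transporter gene, was at 44.4 and 40.3 scaled TPM in WT and 11.9 and 12.6 in TKO libraries, and fell by 1.71 ± 0.061 (adjusted p = 3.1e-07). Slc7a3, an arginine and lysine transporter gene, was at 221 and 224 scaled TPM in WT and 139 and 147 in TKO libraries, and fell by 0.64 ± 0.053 (adjusted p = 2.2e-05). The mitochondrial enzyme genes Pck2 (−0.72), Gpt2 (−0.67) and Aldh1l2 (−0.70) fell with them. Over all 209 tested solute carriers 22 rose and 12 fell (median 0.06), shares close to those of all genes. Among them Slc25a24, a mitochondrial ATP and phosphate carrier, was at 3.97 and 4.39 scaled TPM in WT and 19.7 and 20.7 in TKO libraries, a rise of 2.03 ± 0.086 (adjusted p = 7.1e-07), and Slc9a5 (1.91) and Slc4a4 (1.65) rose. Of 64 ion channel genes 10 rose and 7 fell, shares of 15.6% and 10.9% beside the 10.5% and 5.5% of all genes. Kcnj3, a G protein-gated potassium channel, fell from 4.13 and 3.95 scaled TPM in WT to 0.221 and 0.331 in TKO libraries. It passed the TPM limit only through its WT level. Sterol genes were nearly all short of the limits, with 2 of 30 lower, Ebp (−0.98) and Abca1 (−0.96).

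Genes that act on DNA methylation and base excision repair had 3 of 44 members called higher and 2 lower (median −0.08), and 2 and 2 of 39 outside the 4 regions. The shares, 6.8% and 4.5%, were not above the 10.5% and 5.5% of all genes. Gadd45g was at 2.95 and 5.82 scaled TPM in WT and 14.2 and 14.7 in TKO libraries, a rise of 1.57 ± 0.22 (adjusted p = 4.2e-04). Apobec3, a cytidine deaminase that restricts retroviruses, was at 35.6 and 37.1 scaled TPM in WT and 13.9 and 15.0 in TKO libraries, and fell by 1.27 ± 0.057 (adjusted p = 9.3e-07). Ehmt2, which encodes the histone H3K9 methyltransferase G9a, was at 133 and 128 scaled TPM in WT and 79.2 and 78.2 in TKO libraries, and fell by 0.72 ± 0.056 (adjusted p = 1.4e-05). Dnmt1, the maintenance methyltransferase gene, was at 165 and 153 scaled TPM in WT and 143 and 142 in TKO libraries (change −0.15 ± 0.048), and its cofactor Uhrf1 had a change of −0.083 ± 0.051. Neither was called.

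Of 34 Polycomb subunits 3 rose and 2 fell (median 0.07), and 2 and 1 of 25 outside the 4 regions. These shares of 8.8% and 5.9% were close to the 10.5% and 5.5% of all genes. Cbx7, the main chromodomain subunit of ESCs, was at 106 and 102 scaled TPM in WT and 62.6 and 60.7 in TKO libraries, and fell by 0.74 ± 0.060 (adjusted p = 1.9e-05). Suz12, a core subunit of the H3K27 methyltransferase on chromosome 11, was at 132 and 122 scaled TPM in WT and 215 and 217 in TKO libraries, a rise of 0.76 ± 0.051 (adjusted p = 7.2e-06), whose call was lost when the median of the region was subtracted. Eed, its partner, was at 289 and 283 scaled TPM in WT and 194 and 189 in TKO libraries and was not called (change −0.57 ± 0.043), and Jarid2 had a change of −0.39 ± 0.058, also not called. Pcgf5 (0.83) and Yaf2 (0.62) rose and Rybp fell by 0.63, a call that was likewise lost when the median of its region was subtracted.

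Of 61 replication-dependent histone genes 9 were called lower and the other 52 were not called (median −0.38), and 7 of 58 were lower outside the 4 regions. Hist1h4i was at 505 and 522 scaled TPM in WT and 116 and 113 in TKO libraries, and fell by 2.16 ± 0.055 (adjusted p = 7.0e-08). Hist1h2bp was at 173 and 171 scaled TPM in WT and 46.5 and 45.7 in TKO libraries, and fell by 1.87 ± 0.060 (adjusted p = 1.8e-07). At 4 h the count was 3 higher and 3 lower (median −0.17), with 3 genes lower at both times. Histone genes of a class are close copies, so that reads may be split between them.

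Housekeeping groups were near or below the shares of all genes. Of 82 ribosomal protein genes 1 rose and 2 fell, and of 84 nuclear genes of oxidative phosphorylation 2 fell, Cox6b2 (−0.97) and Ndufv3 (−0.69). The ribosomal genes that fell, Rpl39l (−1.17) and Rpl10l (−0.66), are copies known from testis. Of 323 numbered Zfp genes 9 rose and 16 fell (median −0.13), and of 102 small nucleolar and Cajal body RNAs 1 rose and 3 fell. Of 6 tested clustered protocadherins 4 were called lower and 1 of them again at 4 h, but 4 of the 6 passed the TPM limit through 1 genotype only, and of the 2 over 1 TPM in both genotypes 1 was lower. Their variable exons join shared ones, so that reads may be split between members. On the Y chromosome Kdm5d, a histone demethylase gene, was at 0.317 and 0.255 scaled TPM in WT and 9.11 and 8.59 in TKO libraries, a rise of 2.94 ± 0.093 (adjusted p = 1.8e-07). Eif2s3y was at 57.9 and 53.3 scaled TPM in WT and 129 and 129 in TKO libraries, a rise of 1.20 ± 0.058 (adjusted p = 1.4e-06). In the untreated libraries Eif2s3y was thus well expressed in both genotypes, and Kdm5d was under 1 scaled TPM in WT only. The study's WT libraries of polyadenylated RNA, another library type, had a mean of 0.926 TPM for Eif2s3y.

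Several of the larger changes lay outside every list. Acp5, a tartrate-resistant acid phosphatase of osteoclasts, was at 2.79 and 2.07 scaled TPM in WT and 31.4 and 34.2 in TKO libraries, a rise of 3.31 ± 0.16 (adjusted p = 1.5e-06). Nrk, an X-linked kinase of the placenta, was at 1.54 and 1.32 scaled TPM in WT and 17.2 and 18.5 in TKO libraries, a rise of 2.95 ± 0.083 (adjusted p = 1.1e-07). Prnp, which encodes the prion protein, was at 6.59 and 6.61 scaled TPM in WT and 46.9 and 48.1 in TKO libraries, a rise of 2.67 ± 0.064 (adjusted p = 4.7e-08). Each of the 3 was at a low level in the untreated WT libraries. Acta1, the skeletal muscle actin gene, was at 3.87 and 5.41 scaled TPM in WT and 38.5 and 43.2 in TKO libraries, a rise of 2.90 ± 0.14 (adjusted p = 1.1e-06). Cwc22, a splicing factor gene, was at 55.2 and 52.6 scaled TPM in WT and 296 and 277 in TKO libraries. It rose by 2.39 ± 0.078 (adjusted p = 1.8e-07) and stood out by its high level in the TKO libraries. In the study's WT libraries of polyadenylated RNA, another library type, means were 38.9 TPM for Acp5, 239 for Cwc22 and 2.37 for Acta1. Sct, the secretin gene, rose by 2.77, Fam171b by 2.51 and Serpina3m by 2.33.

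Among genes that fell, Gpx2, a glutathione peroxidase gene of epithelia, was at 16.9 and 19.8 scaled TPM in WT and 2.26 and 2.28 in TKO libraries, and fell by 2.56 ± 0.082 (adjusted p = 1.8e-07). Mid1, an X-linked ubiquitin ligase gene, was at 27.8 and 23.8 scaled TPM in WT and 3.98 and 3.64 in TKO libraries, and fell by 2.47 ± 0.090 (adjusted p = 3.2e-07). Synrg, encoding an adaptor of vesicle traffic, was at 8.72 and 8.89 scaled TPM in WT and 0.471 and 0.529 in TKO libraries, fell by 2.71 ± 0.093 (adjusted p = 2.6e-07) and lies on chromosome 11. Low TKO levels were common to these 3, and Synrg passed the TPM limit only through its WT level. Serpinb6c fell by 2.44, Cnpy1, a regulator of FGF signalling, by 2.07, the homeobox gene Nkx6-3 by 2.06, the G protein gene Gna14 by 2.06 and the arsenic methyltransferase gene As3mt by 2.07.

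The bases before the starts of changed genes held fewer CpG than those of other genes, in classes not matched for level or kind of gene. In the 250 bases before the start, read for 12313 of the genes, the median was 16 CpG for genes that were not called, 13 for those called higher and 10 for those called lower. At least 10 CpG were held by 73.3%, 62.2% and 55.2% of them, respectively, and by 71.1% of all. The classes include microRNA features, for which these bases need not be a promoter. Their median was 3 CpG, and 41 of the 237 tested were called lower. Among the genes called higher that were at or under 1 scaled TPM in WT the median was 10. Among those called lower at or under 1 scaled TPM in TKO it was 7. The median of the genes called higher and that of the whole list were 15 and 13.5 for germline genes, 14 and 11.5 for trophectoderm genes and 6.5 and 6 for the interferon list. The order was reversed in other lists, with 9 and 20.5 for the Nodal, activin and TGF-beta list and 4.5 and 13.5 for ion channel families. Over all genes tested the median was 15. Methylation of these promoters was not measured, and a count of CpG says nothing of it.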

How the data were processed

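The 4 untreated libraries hold ribodepleted total RNA of WT and TKO ESCs, 2 per genotype, sequenced with strand-specific paired reads. The authors removed rRNA and tRNA reads, trimmed the rest, mapped them to mm9 with STAR and the RefSeq transcriptome, counted them per gene with HTSeq and deposited TPM values for each library. Software versions, and whether strand entered the counting, are not given in the sources used here, so that reads of overlapping and antisense genes may not be separated.

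From the deposited TPM, genes with a mean over 1 TPM in the 4 untreated libraries were kept. Each library was scaled by its median-of-ratios size factor. A linear model of log2(scaled TPM + 1) was then fitted in limma 3.58.1 (R 4.3.3), with 1 coefficient for each of the 4 groups (WT and TKO at 0 and 4 h, 8 libraries), which left 4 residual degrees of freedom, and a variance trend. All tests were two-sided. Genes were called at a Benjamini-Hochberg adjusted p under 0.05 over all genes tested and a change over 1.5-fold. The study's methods name DESeq2 on raw counts, which were not used here. Whole reads could be recovered from the steps of the TPM values for 100% of the 19470 genes above 0 in these libraries (tolerance 0.001), less any factor shared by all libraries of a gene. With such depth, counting error is small for all but the lowest genes, and TPM alone would not show it.

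Members and gene lists were chosen with earlier results of these data known. Named genes were Tet1 to Tet3, the 3 largest rises and falls of each list among called genes without overlap between genotypes, and the 25 largest rises and falls over 5 scaled TPM; other genes named in the text, and the 4 chromosomal regions, were chosen after their values were seen. A few genes that this rule names are not reported here. Positions come from GENCODE vM1 (NCBIM37), with 257 tested genes not placed, and miRNA sequences from RefSeq. The fit was tested on simulated data. Alternatives changed the scaling, pseudocount, filter, threshold, model, regions and libraries used.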

Additional observations from a re-analysis of the deposited data

How the results depend on the processing

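Against 1322 genes called higher and 691 called lower in untreated TKO cells, the counts stayed within 1.5 times of these values with the TPM as deposited (1623 and 524), quantile normalisation (1102 and 852), a pseudocount of 0.1 TPM (1591 and 860), no filter on low values (1376 and 808), the fit to the 4 untreated libraries alone (1388 and 673), no variance trend (1320 and 684) and limma voom on recovered reads (1618 and 882). They did not with a pseudocount of 5 TPM (545 and 355; the cause was not tested beyond the lower folds that a larger pseudocount gives to low genes), a mean over 5 TPM, which leaves fewer genes to test (776 and 457), no fold limit (3492 and 3562) and a 2-fold limit (449 and 186). The share of calls that were higher was 65.7% in the report, 75.6% with the TPM as deposited and 56.4% with quantile normalisation, and only without a fold limit (49.5%) were lower calls as many as higher ones. The median change of all genes moved from −0.019 to 0.071 with the TPM as deposited. With 1 library left out at a time, 1296 to 1344 genes were called higher and 701 to 730 lower, and the lone library of a genotype was then assumed to vary like the other groups. In each of these alternatives 0 of the 2013 called genes turned direction.

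Replicate numbers of the labels pair the libraries by number alone. Untreated WT and TKO libraries of 1 number left their group means together only weakly (correlation 0.024), and over all pairs of groups that correlation lay between −0.051 and 0.12. A replicate block in the model gave 1325 higher and 692 lower calls, with 2010 of the 2013 calls kept.

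Of the 207 named genes that were called, 85 lost the call under at least 1 alternative, 69 of them with the 2-fold limit and 43 with the pseudocount of 5 TPM. Snora47, Ltbp4, Mir302a, Mir495, Mir142, Snord8, Snord91a, Ankrd1, Rps2, Rybp, Socs1, Yaf2 and Pcdhga1 lost it when 1 library was left out. Both alternatives for the 4 chromosomal regions were chosen after the data were seen. With the median of its region subtracted from each gene, 1159 genes were called higher and 696 lower, 1808 of the calls were kept, and Gadd45a, Lif, Pecam1, Rybp, Snord91a, Stat5b and Suz12 were no longer called. Without the genes of the regions, 1056 were called higher and 535 lower. Tet3, not called in any alternative, had a change of 0.058 with the TPM as deposited, 0.0098 with the 4 untreated libraries alone and −0.040 to 0.031 with 1 library left out, against −0.00083 in the report, so that its sign was not determined.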
